A study of Mus musculus with 12 samples.

Results

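Wild-type mouse neural progenitor cells were compared at 9 days and at 5 days after delivery of Cre recombinase. The comparison used 6 of the 12 libraries of the series, 3 at each day, chosen by genotype and day as the labels give them. The cells were of the LaminB1+/+; Ai3 genotype on the C57BL/6 strain, so the lamin B1 gene Lmnb1 was intact and the reporter allele Ai3 makes EYFP once Cre has acted. Both days shared the same handling: the lentivirus pSox2-Cre, in which a Sox2 promoter drives Cre, growth in medium with 10 ng/ml of EGF and 10 ng/ml of FGF-2, and sorting of EYFP-positive cells before RNA isolation. The sort therefore kept cells that the virus had reached and that had expressed Cre. The other 6 libraries (cKO, LaminB1fl/fl; Ai3, same virus and days) are used only beside some results. The labels do not say whether replicates were separate cultures, so p-values measure the spread between these libraries, which may be technical.

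Neural progenitors held in EGF and FGF-2 normally keep dividing. Their growth depends on receptor signalling through ERK and cyclin D1, on E2F factors that switch on the DNA replication genes, and on amino acid supply, which the transcription factor ATF4 tunes. Notch signalling through Hes genes holds progenitors undifferentiated, and many of the genes that mark neural stem cells also mark astrocytes or oligodendrocyte precursors, the glial cells such progenitors can form. Bulk libraries give the sum over all sorted cells, so fewer cells of a type and less RNA per cell cannot be told apart.

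Day and table cannot be told apart, since the authors deposited each day in its own table. Total expected counts ranged from 29460433 to 32127716 at day 5 and from 24413023 to 24662871 at day 9. The feature Gm42418 took 0.0627%, 0.292% and 0.478% of counts at day 5 and 14.9%, 33.0% and 16.8% at day 9. Gm42418 and Lars2 were left out of the tests. Non-polyadenylated small RNA moved with them: the rRNA, snRNA, snoRNA, scaRNA and misc_RNA features held 0.00417%, 0.00271% and 0.00225% of counts at day 5 and 0.435%, 0.459% and 0.434% at day 9. This difference did not keep to the days in the cKO libraries, where 1 day 5 library held 0.783% and 1 day 9 library held 0.0095%. The headers of the day 5 columns carry the word mRNA and those of day 9 do not. The part of RNA selection in the results was not tested. The tables also use different annotations, and a symbol can stand for different genes in them. Pgm1 stood at 143 to 254 CPM (counts scaled to library size) in WT at day 5 and at 22.3 to 26.8 CPM at day 9, while Pgm2 stood at 16.7 to 21.6 CPM and then at 139 to 163 CPM, and the cKO libraries showed the same exchange. Of the genes tested, 312 have a symbol that RefSeq also lists as another name of a different gene, and 90 of them were called.

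**Figure D1:**
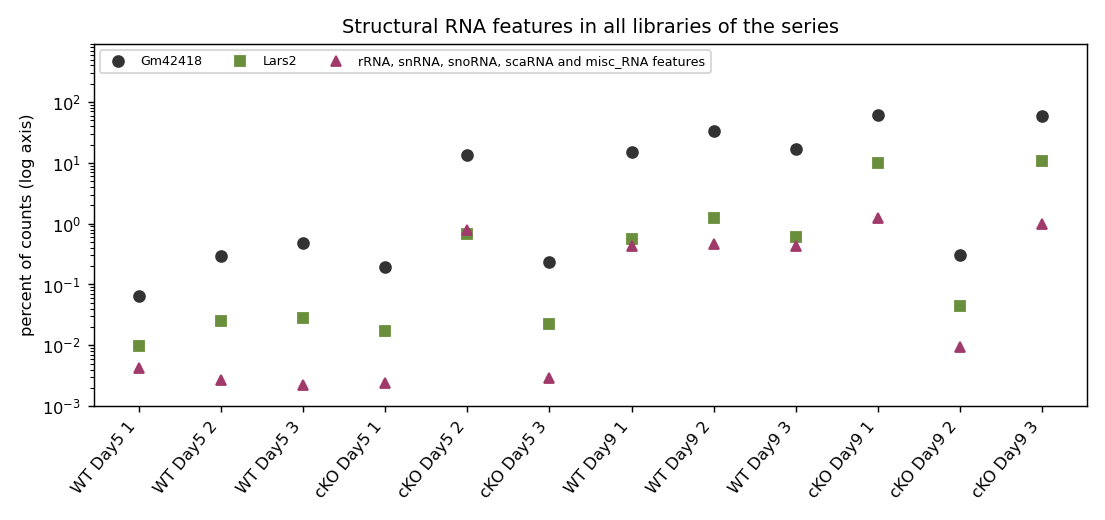
Percent of counts (log axis) on Gm42418 (circles), Lars2 (squares) and the small RNA classes (triangles) in each of the 12 libraries. The 3 WT day 9 libraries sit at 14.9% to 33.0% for Gm42418 and the 3 WT day 5 libraries below 0.5%, while 1 cKO library of each day sits with the other day.

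A single wild-type library stood apart. Replicate 1 of day 5 correlated with its 2 partners at r = 0.955 and 0.954 across genes (log2 CPM), against 0.989 between the partners and 0.979 to 0.985 among the day 9 libraries. Of 5 equal bins of genes by transcript GC content, the lowest (26.2% to 44.6% GC) had a median log2 deviation of 0.73 from the 6-library mean in that library, and of -0.27 and -0.18 in the other day 5 libraries. In the highest GC bin the order was the reverse, at -0.28 against 0.34 and 0.24. Values without this library, or after a correction for GC content and length, are also given beside results that they changed. Leaving it out raised the number of calls in 34 of the 42 gene lists and the correction in 39, as both did over all genes.

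**Figure D2:**
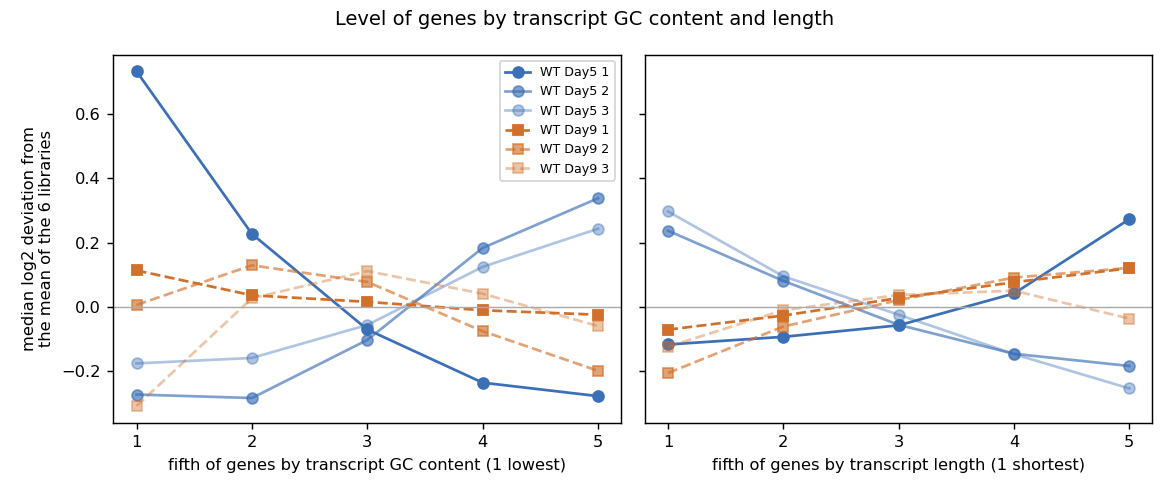
Median log2 deviation of genes from their mean over the 6 wild-type libraries, for 5 equal bins of genes by transcript GC content (left) and transcript length (right). Solid blue lines are day 5 and dashed orange lines day 9 libraries; WT day 5 replicate 1 starts at 0.73 in the lowest GC bin while its 2 partners lie below 0.

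Of 14456 genes tested with edgeR's quasi-likelihood test and Benjamini-Hochberg adjustment (threshold 0.05), 1913 (13.2%) were higher and 1681 (11.6%) were lower at day 9. Of these, 1094 (7.57%) were at least 2-fold higher and 1084 (7.5%) at least 2-fold lower. The median log2 fold change over all tested genes was -0.01. Ranks within each library, which need no scaling between tables, gave the same direction for each of these genes: 1730 of the 1913 and 1434 of the 1681 also passed a limma test on rank scores, and 0 had a rank change of opposite sign. Without WT day 5 replicate 1, 4032 (27.8%) were higher and 3513 (24.2%) lower. Without any other single library the counts fell to between 631 and 1013 higher and between 437 and 1247 lower. In what follows a named call held in all 6 fits that leave out 1 library, unless its loss is stated. A rise or fall of a gene given by a bare number is on the log2 scale.

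Cell cycle genes were lower at day 9. In the S phase list, which holds genes for origin licensing, DNA synthesis and nucleotide supply, 46 of 50 tested members fell and 0 rose, with a median log2 fold change of -1.24. All 50 had a log2 fold change below 0, and 45 were called in all 4 fits, with and without WT day 5 replicate 1 and with and without GC and length correction. Of all genes 13.2% were called higher and 11.6% lower, and with that correction 23.6% and 21.7%. In the G2 and M phase list 39 of 60 tested members fell and 0 rose (median -0.98), 31 of them called in the same 4 fits. Leaving out 1 of the other 5 libraries left between 23 and 39 S phase calls and between 10 and 32 G2 and M phase calls, with medians of -1.35 to -1.20 and -1.05 to -0.95.

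Chaf1b encodes a subunit of the assembly factor that loads histones on new DNA. It stood at 94.6, 134 and 129 CPM (after TMM scaling) at day 5 and at 25.8, 29.6 and 21.9 CPM at day 9. Every day 9 library lay below every day 5 library, a 4.63-fold fall (log2 -2.21 ± 0.20 SE, adjusted p = 0.00073). Cdt1, which licenses replication origins, fell from 52.6, 85.5 and 82.0 CPM to 15.9, 20.4 and 12.8 CPM (log2 -2.17 ± 0.27, adjusted p = 0.00237). Ccne1, the cyclin that opens S phase, fell by 1.77 on the log2 scale, and Ung, a uracil DNA glycosylase, by 1.75. Among mitotic genes Psrc1 and Gtse1, which act on spindle microtubules, fell by 1.33 and 1.32, and the ubiquitin-conjugating enzyme Ube2c and the chromosome passenger Birc5 by 1.21 and 1.07. These 4 moved less than Chaf1b and Cdt1 in log2 terms, and the difference between the genes was not tested. The effective length of Birc5 did not match within 1.2-fold between the days.

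Mcm5, Mcm6 and Uhrf1 carry in the 250 bases before their start the letters that E2F factors bind, searched as TTTGGCGC, TTTCCCGC, TTTGCCGC and TTTCGCGC on both strands, with overlapping matches allowed. These windows are shown because S phase genes moved together and are the textbook E2F targets. They are the list's called members of smallest adjusted p that have a match and no annotated exon in the window. Sequences are from RefSeq (GRCm38.p6), 5′ to 3′ on the gene's strand, with matches in capitals.
Mcm5, chr8:75109259-75109508, forward strand: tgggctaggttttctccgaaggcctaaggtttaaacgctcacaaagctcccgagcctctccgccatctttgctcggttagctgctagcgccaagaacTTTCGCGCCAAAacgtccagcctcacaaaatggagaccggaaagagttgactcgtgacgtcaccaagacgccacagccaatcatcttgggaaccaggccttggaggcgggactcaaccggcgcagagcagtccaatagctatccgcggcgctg
Mcm6, chr1:128359706-128359955, reverse strand: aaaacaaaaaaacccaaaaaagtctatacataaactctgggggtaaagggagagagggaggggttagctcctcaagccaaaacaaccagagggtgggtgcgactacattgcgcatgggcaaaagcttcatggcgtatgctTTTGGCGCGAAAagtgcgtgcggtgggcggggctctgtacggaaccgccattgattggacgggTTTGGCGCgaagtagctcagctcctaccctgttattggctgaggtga
Uhrf1, chr17:56304063-56304312, forward strand: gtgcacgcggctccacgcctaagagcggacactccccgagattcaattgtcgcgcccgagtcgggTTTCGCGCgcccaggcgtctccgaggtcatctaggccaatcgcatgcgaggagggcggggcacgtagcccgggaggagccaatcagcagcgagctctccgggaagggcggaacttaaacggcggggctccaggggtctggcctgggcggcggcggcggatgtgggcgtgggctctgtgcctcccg
The Mcm5 window holds 2 overlapping matches, the Mcm6 window 3 and the Uhrf1 window 1. Of 40 S phase genes with a window in the table, 9 (22.5%) held a match, as did 3 of 51 G2 and M phase genes (5.88%) and 583 of all 27025 genes (2.16%). A match is a description of letters, not a site. The S phase list holds textbook E2F targets, so its share was no test of the day change.

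Mcm5 and Mcm6 are subunits of the replicative helicase, and Uhrf1 guides DNA methylation to newly copied DNA. Mcm5 fell from 237, 409 and 390 CPM to 108, 117 and 86.3 CPM (log2 -1.73 ± 0.24, adjusted p = 0.00393). Mcm6 fell from 318, 242 and 291 CPM to 113, 156 and 122 CPM (log2 -1.13 ± 0.18, adjusted p = 0.00656). Uhrf1 was at 223, 311 and 292 CPM at day 5 and at 147, 180 and 127 CPM at day 9 (log2 -0.86 ± 0.20, adjusted p = 0.0198). The groups did not overlap for any of these 3 genes, as for 47 of the 50 S phase genes in that direction (20.9% of all genes tested). The Uhrf1 call ended without day 5 replicate 2 or 3 or without day 9 replicate 1 or 3 (highest adjusted p 0.105).

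Of the 12 largest falls among genes averaging 5 CPM or more whose effective lengths matched between the tables, 10 were of genes of which day 5 replicate 1 held far more than its partners. Mki67, the proliferation marker Ki-67, on chromosome 7 (135689784 to 135716361, GRCm38), stood at 647, 178 and 108 CPM at day 5 and at 15.4, 18.4 and 10.2 CPM at day 9. All day 9 libraries lay far below the lowest day 5 library. Its log2 fold change was -4.40 ± 0.71 (adjusted p = 0.00709), and -3.29 without day 5 replicate 1. The condensin subunit Smc2 had a log2 fold change of -4.49, and of -3.22 without that library. For Ddias, a gene of the DNA damage response, these values were -3.89 and -3.01. The other 7 were Casp8ap2, Cenpe, Smc6, Eea1, Nol8, Rock2 and Kif15, with log2 fold changes from -4.68 to -3.61, and from -3.31 to -2.42 without that library. The calls of these 7 ended without day 9 replicate 2, for Cenpe and Eea1 also without day 9 replicate 1 and for Nol8 without day 9 replicate 3 (highest adjusted p 0.0808).

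**Figure D3:**
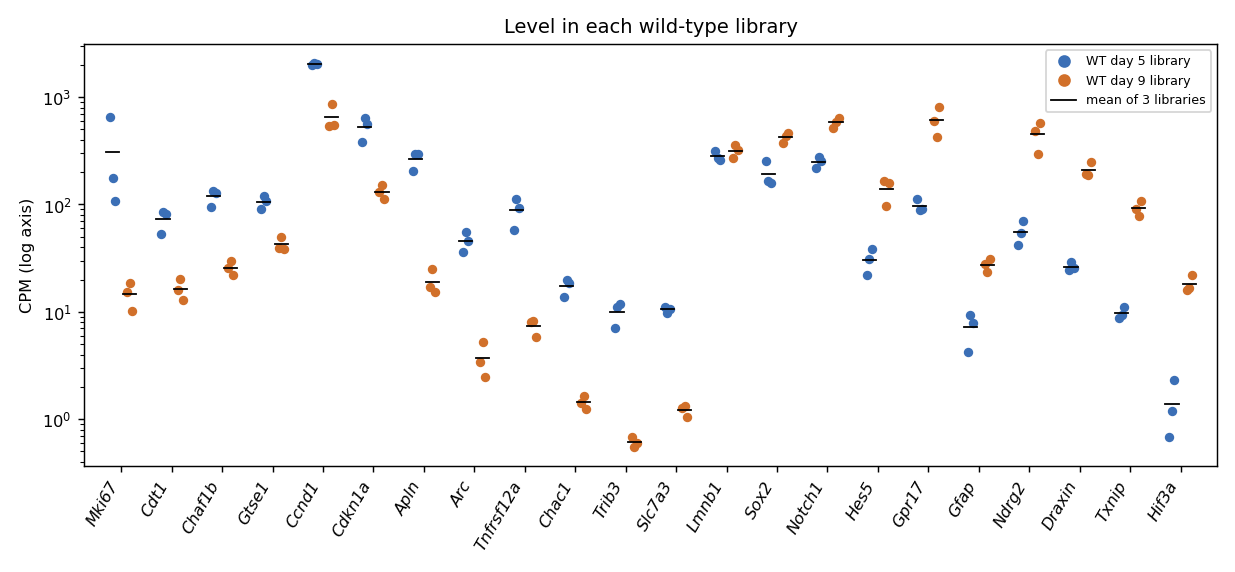
CPM (log axis) of 22 named genes in each wild-type library, day 5 in blue and day 9 in orange, with a line at the mean of 3 libraries. Apart from Lmnb1 the day 5 and day 9 points of each gene do not overlap, and the first day 5 library stands above its partners for Mki67.

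Apln, the secreted ligand of the apelin receptor, lies on chromosome X (48025146 to 48034853) and, with Arc, was among these 12 without an excess in day 5 replicate 1. It went from 206, 294 and 295 CPM to 17.01, 24.9 and 15.3 CPM, 13.9-fold lower (log2 -3.80 ± 0.26, adjusted p = 0.00014). Arc, an immediate early gene of neurons on chromosome 15 (74669083 to 74672570), went from 36.3, 55.6 and 45.9 CPM to 3.41, 5.24 and 2.47 CPM (log2 -3.64 ± 0.33, adjusted p = 0.00072). Tnfrsf12a, the receptor of the cytokine TWEAK, went from 58.0, 114 and 93.1 CPM to 8.09, 8.22 and 5.83 CPM (log2 -3.58 ± 0.30, adjusted p = 0.00044).

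Targets of ATF4 and genes of amino acid supply fell without exception among their calls. In this list 24 of 34 tested members fell and 0 rose (median -1.11, 23 of them in all 4 fits). The shares over all genes were 11.6% lower and 13.2% higher. Leaving out 1 of the other 5 libraries left between 15 and 21 calls, and the median stayed between -1.16 and -1.11. Chac1, which degrades glutathione, was at 13.8, 19.6 and 18.5 CPM at day 5 and at 1.41, 1.64 and 1.24 CPM at day 9 (log2 -3.60 ± 0.27, adjusted p = 0.00022). Trib3, a pseudokinase that restrains ATF4, was at 7.03, 11.1 and 11.8 CPM and then at 0.682, 0.548 and 0.593 CPM (log2 -4.02 ± 0.32, adjusted p = 0.00033). For both genes all 3 day 9 libraries lay far below all 3 of day 5. Slc7a3, a carrier of cationic amino acids, fell 8.66-fold from 11.1, 9.83 and 10.7 CPM to 1.27, 1.34 and 1.04 CPM (adjusted p = 0.0003). Mthfd2, a mitochondrial enzyme of one-carbon metabolism, fell 4.72-fold from 78.3, 77.2 and 90.2 CPM to 16.2, 21.6 and 14.3 CPM (adjusted p = 0.00073).

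The composite element that ATF4 binds with a C/EBP partner was searched as TGATGNAA on both strands. Of 30 list members with a window, 9 (30%) held it in the 250 bases before their start, as did 1056 of all genes (3.91%). The list was made of ATF4 targets and amino acid genes, so this share was no test of the day change. The window of Gars, the glycyl-tRNA synthetase that charges tRNA with glycine, is shown by the same rule as above, with its match on the opposite strand in capitals.
Gars, chr6:55037751-55038000, forward strand: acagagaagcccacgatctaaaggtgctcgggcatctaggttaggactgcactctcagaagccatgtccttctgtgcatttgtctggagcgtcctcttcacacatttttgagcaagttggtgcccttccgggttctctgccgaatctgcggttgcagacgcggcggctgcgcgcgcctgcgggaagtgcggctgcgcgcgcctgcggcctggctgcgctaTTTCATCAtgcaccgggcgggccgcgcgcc
Gars itself was at 275, 262 and 294 CPM at day 5 and at 158, 173 and 173 CPM at day 9 (log2 -0.72 ± 0.14, adjusted p = 0.0107). The groups did not overlap. Its call ended without any 1 of the 3 day 9 libraries (highest adjusted p 0.072).

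Biosynthesis genes were lower, but several of these lists depended on day 5 replicate 1. Over all genes 11.6% were lower, or 24.2% without that library and 21.7% after GC and length correction. Of 30 ribosome biogenesis genes 17 fell and 0 rose (median -0.83), and that library lay with its partners, with median deviations of 0.35, 0.32 and 0.32 at day 5 against -0.37, -0.35 and -0.43 at day 9. Bop1 and Nop2, which act in large subunit maturation, fell by 1.49 and 1.25, and the box C/D particle protein Nop56 by 0.92. Without 1 of the other 5 libraries between 4 and 13 of the 30 were called. Of 78 tested cytosolic ribosomal protein genes 28 fell and 0 rose (median -0.60). Here day 5 replicate 1 lay at -0.05, between its partners at 0.39 and 0.56 and the day 9 libraries at -0.13 to -0.45. Without it 67 of 78 fell and 1 rose, and after GC and length correction 30 fell, 3 rose and the median was -0.25. Without 1 of the other 5 libraries only 4 to 10 were called lower. Rps7 went from 109, 128 and 150 CPM to 49.96, 40.6 and 49.2 CPM (log2 -1.47 ± 0.18, adjusted p = 0.00237). Ribosomal protein genes have many processed copies that share reads, and Rps12 was listed at 0 in all 6 libraries.

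Glycolysis showed the same arrangement. Of 20 genes 10 fell and 1 rose (median -0.80), and day 5 replicate 1 lay at -0.15, near day 9, while its partners lay at 0.64 and 0.66. Pgk1, phosphoglycerate kinase, went from 526, 678 and 765 CPM to 303, 286 and 324 CPM (log2 -1.11 ± 0.18, adjusted p = 0.00603), and Pfkp, a phosphofructokinase, fell by 1.31. The member that rose, Aldoc, is also an astrocyte marker. Without 1 of the other 5 libraries only 2 or 3 glycolysis genes were called lower, and after GC and length correction 15 were lower and 4 higher. Nuclear-encoded respiratory chain genes counted 5 falls and 0 rises among 40, beside 11.6% lower over all genes. Without day 5 replicate 1 they counted 32 falls and 2 rises. After the correction they counted 5 falls and 2 rises, when 21.7% of all genes were lower. Proteasome genes counted 5 falls among 31, but 18 without day 5 replicate 1 and 13 after the correction. Both lists had 0 calls without at least 1 of the other libraries. Hypoxia response genes counted 8 falls and 1 rise among 22, and Adm (adrenomedullin) fell 3.6-fold. On the log2 scale Higd1a fell by 1.26 and Bnip3 by 1.04, while Mxi1, an antagonist of MYC, rose by 1.56. The correction ended the Bnip3 call (log2 -0.77, adjusted p = 0.0582). Between 4 and 10 members of the list were called lower without 1 library, and 3 were called higher without day 5 replicate 1 or after the correction. Cholesterol synthesis genes counted 6 falls among 25 (13 with 3 rises without day 5 replicate 1, 14 with 1 rise after the correction, 0 to 2 without 1 other library), and fatty acid synthesis genes 5 rises among 14, of which Gpam, the first enzyme of glycerolipid synthesis, had a log2 fold change of 1.01 (adjusted p = 0.00584). Between 1 and 7 were called higher without 1 library.

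**Figure D4:**
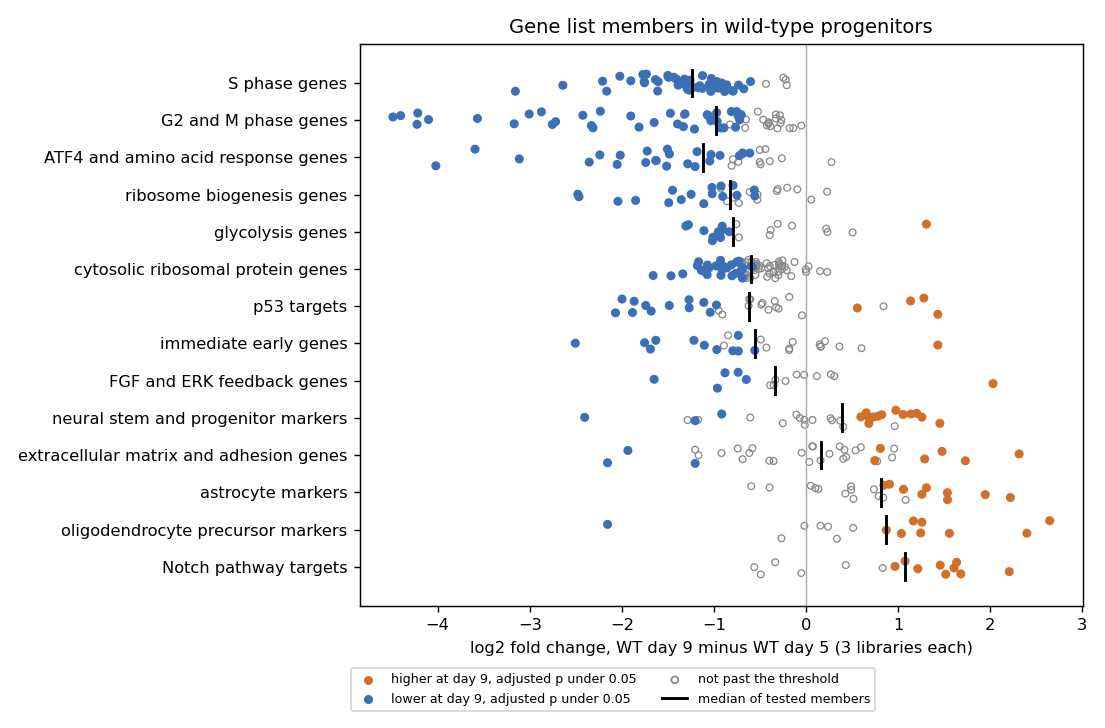
Log2 fold change (day 9 minus day 5) of each tested member of 14 gene lists, with members past the threshold filled in orange (higher) or blue (lower), others as open circles and the median as a bar. The S phase median lies at -1.24 and the Notch median at 1.08.

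Growth factor response genes were mixed, with more falls than rises. Of 25 immediate early genes 11 fell and 1 rose (median -0.56), of 15 FGF and ERK feedback genes 5 fell and 1 rose (median -0.33), and between 3 and 6 and between 1 and 4 falls were called without 1 library other than day 5 replicate 1. Over all genes 11.6% were lower and 13.2% higher. After GC and length correction the median of the feedback list was -0.14. Without day 5 replicate 1 each list had 2 rises, when 27.8% of all genes were higher. Ccnd1, cyclin D1, was at 1978, 2073 and 2042 CPM at day 5 and at 536, 860 and 545 CPM at day 9, 3.14-fold lower (log2 -1.65 ± 0.22, adjusted p = 0.00312). Day 9 replicate 2 held the highest of the 3 day 9 values, still far below day 5. The zinc finger factors Egr3 and Klf4 fell by 2.51 and 1.75, and the bZIP factor Maff by 1.63. Dusp6 and Spry4, feedback inhibitors of ERK signalling, fell by 0.88 and 0.74, but both calls ended without day 5 replicate 2 or 3 or day 9 replicate 1 or 3 (highest adjusted p 0.098 and 0.116). Il17rd, a membrane inhibitor of FGF signalling, went the other way, from 17.3, 16.5 and 19.2 CPM to 62.5, 65.3 and 89.0 CPM (log2 2.03 ± 0.20, adjusted p = 0.00098).

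Of 30 p53 targets 12 fell and 4 rose (median -0.62), beside 11.6% lower and 13.2% higher over all genes. Cdkn1a, the CDK inhibitor p21, was at 383, 639 and 560 CPM at day 5 and at 130, 152 and 114 CPM at day 9 (3.998-fold lower, adjusted p = 0.00177). On the log2 scale Sesn2, a stress sensor that is also an ATF4 target, fell by 1.74 and the nuclease Aen by 1.11. Btg2, an antiproliferative gene, rose by 1.43 on that scale. Between 8 and 10 falls were called without 1 library other than day 5 replicate 1. Of 9 tested senescence and secreted factor genes 6 fell and 1 rose, among them Igfbp3, which binds insulin-like growth factors, from 666, 814 and 742 CPM to 180, 216 and 180 CPM (log2 -1.95 ± 0.16, adjusted p = 0.00042). Timp1, a protease inhibitor, fell by 1.76. After GC and length correction 4 of these 9 genes fell and 0 rose, when 21.7% of all genes were lower and 23.6% higher. Without 1 library other than day 5 replicate 1 between 3 and 4 fell. Il6 and Il1b of this list were at 0 in all 6 libraries.

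Notch pathway genes were higher. Of 15 members 9 rose and 0 fell (median 1.08, all 9 called in the 4 fits), and between 5 and 8 were called without 1 of the other 5 libraries. Without day 5 replicate 1 there were 11 rises and 2 falls, and after the correction 10 rises and 1 fall. Over all genes 13.2% were higher and 11.6% lower in the full comparison. These shares were 27.8% and 24.2% without that library, and 23.6% and 21.7% after the correction. Notch1, a receptor, was at 221, 277 and 253 CPM at day 5 and at 513, 586 and 643 CPM at day 9 (log2 1.21 ± 0.16, adjusted p = 0.00333). Dll1, a ligand, rose from 56.2, 58.3 and 49.4 CPM to 159, 147 and 203 CPM (log2 1.64 ± 0.18, adjusted p = 0.00154). Of the targets, Hes5, a repressor of neuronal differentiation, rose from 22.1, 31.3 and 38.1 CPM to 166, 97.0 and 160 CPM (log2 2.21 ± 0.28, adjusted p = 0.00288), and the feedback inhibitor Nrarp rose by 1.61 ± 0.19 (adjusted p = 0.00208). Receptor, ligand and targets were thus each higher in all 3 day 9 libraries. The RBPJ letters GTGGGAA, searched on both strands, were in the windows of 3 of 11 Notch genes (27.3%) and of 1669 of all genes (6.18%). These genes were chosen as members of the pathway, so this share was no test of the day change.

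The labelled cell type was checked against its markers. All 30 neural stem and progenitor markers were tested, and their summed level was 9756 to 12810 CPM at day 5 and 10450 to 10800 CPM at day 9. Of these, 13 rose and 3 fell (median 0.39), beside 13.2% higher and 11.6% lower over all genes tested. Without 1 library other than day 5 replicate 1 between 2 and 7 of them were called higher and between 3 and 5 lower. After the correction 15 were higher and 6 lower, when 23.6% of all genes were higher and 21.7% lower. Sox2, which specifies neural progenitors and whose promoter drives Cre in the virus, was at 253, 166 and 157 CPM at day 5 and at 371, 432 and 466 CPM at day 9 (log2 1.14 ± 0.22, adjusted p = 0.011). The groups did not overlap, but the call ended without day 9 replicate 3 (adjusted p = 0.0511). Nes, the intermediate filament nestin, had values of 781, 544 and 519 CPM and of 431, 599 and 517 CPM that overlapped (adjusted p = 0.399), and Olig2 differed by -0.02 (adjusted p = 0.937).

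The 3 markers that fell were Vim, Tnc and Hmga2. Vim, the filament protein vimentin, fell from 2717, 2616 and 2760 CPM to 1341, 1438 and 1509 CPM (log2 -0.92 ± 0.14, adjusted p = 0.00556). Tnc, the matrix protein tenascin-C, fell from 1035, 984 and 911 CPM to 389, 402 and 481 CPM (log2 -1.20 ± 0.16, adjusted p = 0.00283). Hmga2, a chromatin protein of young stem cells, fell by 2.40 ± 0.37 (adjusted p = 0.00536). Gli3, a transcription factor of the Hedgehog pathway, was at 3.52, 3.19 and 3.50 CPM at day 5 and at 9.36, 10.3 and 8.30 CPM at day 9 (log2 1.45 ± 0.22, adjusted p = 0.00489). Called progenitor markers thus went in both directions, and the falls, 3 of 30, stand beside 11.6% lower over all genes. Nothing particular to these markers is read from the falls.

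Glial markers rose in part. Of 22 astrocyte markers 9 rose and 0 fell (median 0.81), and of 15 tested oligodendrocyte precursor markers 8 rose and 1 fell (median 0.87), while 4 of 11 tested newly formed oligodendrocyte and myelin genes rose and 0 fell. The shares over all genes were 13.2% higher and 11.6% lower. Without 1 library other than day 5 replicate 1 between 5 and 8, between 4 and 6 and between 0 and 2 were called higher. The correction gave 15 rises and 1 fall for astrocyte markers, which had 10 rises and 2 falls without day 5 replicate 1. The myelin list had 7 rises without that library. Of all genes, 23.6% were higher and 21.7% lower after the correction, and 27.8% and 24.2% without that library. Gfap, the astrocyte filament protein, went from 4.26, 9.30 and 7.87 CPM to 28.1, 23.5 and 31.0 CPM (log2 1.95 ± 0.32, adjusted p = 0.0063). Gpr17, a receptor of committed oligodendrocyte precursors, rose 6.26-fold from 112, 88.6 and 90.4 CPM to 599, 423 and 803 CPM (log2 2.65 ± 0.26, adjusted p = 0.00094). Sox8 and Cspg4 (NG2) of the same list rose by 1.26 and 1.03. The precursor marker that fell, Vcan, had values of 157, 49.7 and 38.9 CPM and of 29.1, 15.04 and 10.8 CPM (adjusted p = 0.0402), day 5 replicate 1 being the highest. Its call ended without that library or without any 1 day 9 library (highest adjusted p 0.141). Mbp, the main myelin protein, stood at 4.93 to 7.29 CPM at day 5 and at 6.14 to 9.05 CPM at day 9 (adjusted p = 0.421).

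**Figure D5:**
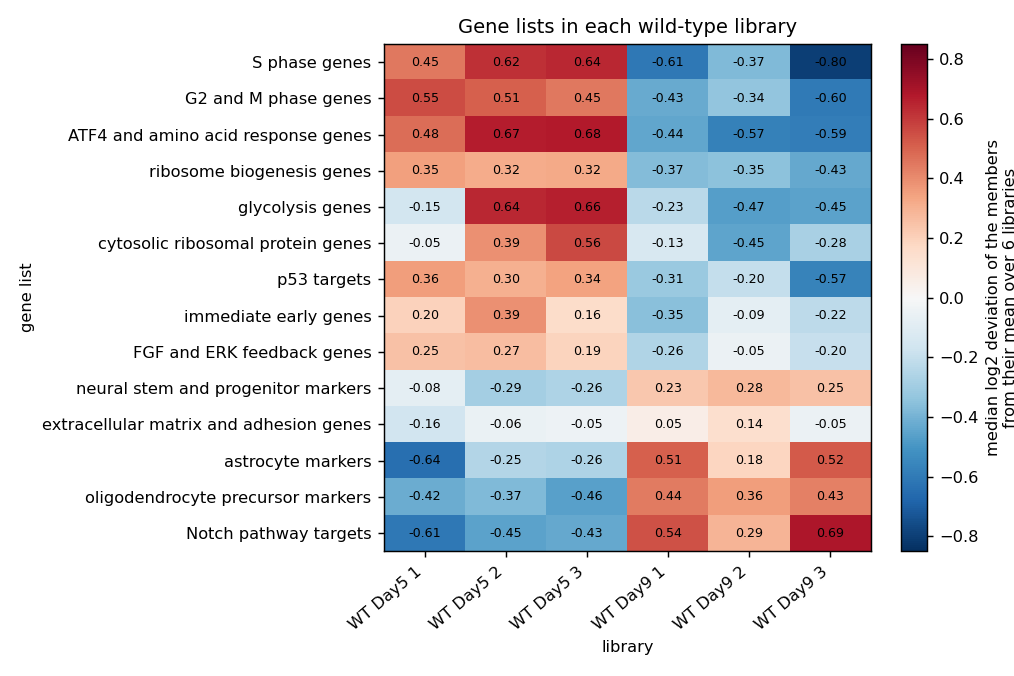
Median log2 deviation of the members of 14 gene lists from their mean over the 6 wild-type libraries, 1 column per library. S phase and ATF4 lists are positive in all 3 day 5 columns and negative in all 3 day 9 columns, while glycolysis and ribosomal protein lists are below 0 in WT day 5 replicate 1.

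Neuronal and synaptic genes showed no single direction. Of 22 tested neuronal differentiation markers 5 rose and 1 fell (median -0.26). Of 30 synaptic genes 4 rose and 4 fell (median -0.49, or -0.15 without day 5 replicate 1). Over all genes 13.2% were higher and 11.6% lower, or 23.6% and 21.7% after GC and length correction. Nothing particular to the synaptic list is read from its counts. Without 1 library 3 to 6 neuronal markers were called higher, and 2 to 5 synaptic genes higher and 0 to 7 lower. The neuronal median was -0.09 without day 5 replicate 1 and -0.07 after the correction, which gave 5 rises and 4 falls there and 8 rises and 11 falls among synaptic genes. Gap43, a growth cone protein, fell from 325, 179 and 179 CPM to 53.1, 76.7 and 58.4 CPM (log2 -1.86 ± 0.28, adjusted p = 0.00512). Sox4 rose from 268, 164 and 152 CPM to 554, 534 and 545 CPM (log2 1.48 ± 0.23, adjusted p = 0.0055). Neurog2, a proneural factor, passed the test from levels of at most 0.0676 CPM at day 5 to 1.61, 0.853 and 2.23 CPM at day 9 (adjusted p = 0.00292). Syn2 and Nlgn3, genes of the presynaptic and postsynaptic side, rose by 1.29 and 1.51. The effective length of Nlgn3 did not match within 1.2-fold between the days. Camk2b and Grin1 had log2 fold changes of -0.97 each, called in the full comparison but not without day 9 replicate 1 or 3 or day 5 replicate 2, nor, for Grin1, without day 9 replicate 2 (highest adjusted p 0.0882 and 0.0845).

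Markers of other cell types stayed low. The microglia and macrophage markers Aif1, C1qa, C1qb, C1qc and Tyrobp were at 0 in all 6 libraries, and 4 of the 15 were tested. Of these Itgam fell from 0.98, 1.51 and 1.39 CPM to 0.292, 0.183 and 0.198 CPM (adjusted p = 0.00529). P2ry12 was also called lower, but its call ended without any 1 of the day 9 libraries (highest adjusted p 0.0635), and it was not tested without day 5 replicate 1. Of the 12 endothelial markers 4 were tested, with summed levels of 5.91 to 7.46 CPM at day 5 and 8.45 to 9.68 CPM at day 9. Of the 15 mural and fibroblast markers 6 were tested, and their sum, 307 to 414 CPM at day 5 and 627 to 734 CPM at day 9, was mostly Cspg4 and Thy1, which neural cells express. Dcn and Lum were at 0 in all 6 libraries. Of 6 tested ependymal markers 0 passed the threshold by edgeR and 1 by DESeq2, and 3 had an unadjusted p under 0.05. Without day 5 replicate 1 there were 1 rise and 2 falls by edgeR, and after the correction 1 of each.

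The largest rises were small noncoding RNAs. Of the 12 largest under the same conditions, 9 were of this kind (Rny1, Rn7s1, Rn7s2, Rn7sk, Rmrp, Rnu1a1, Snora73b, Mir6240 and Mir6236). Of 134 tested rRNA, snRNA, snoRNA, scaRNA and misc_RNA features 124 were higher and 0 lower. Rmrp, annotated as a ribozyme, and Mir6240 and Mir6236, annotated as miRNA, lie outside these classes. Of 15 tested miRNA features 7 were higher and 0 lower, and of 2 ribozyme features 2 were higher. Rny1, the Y1 RNA, was at 0.338, 0.197 and 0.146 CPM at day 5 and at 465, 484 and 528 CPM at day 9 (log2 11.04 ± 0.30, adjusted p = 6.62e-06, and log2 11.75 after the correction). Rn7sk, the RNA that holds the elongation factor P-TEFb inactive, was at 1.76, 2.005 and 1.28 CPM and then at 415, 684 and 438 CPM. Rn7s1 and Rn7s2 had the same counts in each library, as copies that share reads, and Rnu1a1 is among the symbols that also name another gene. Y, 7SL, 7SK and U1 RNAs lack a poly(A) tail. All 9 were higher in each wild-type day 9 library than in any of day 5, as was the small RNA share given above, and day and library make-up cannot be told apart. Mir6240 stood at 395, 1063 and 434 CPM at day 9, highest in the library with the largest share of Gm42418. Histone mRNAs of the replication-dependent kind, which also lack the tail, were higher for 4 of 16 tested genes and lower for 1, against the direction of the S phase list (3 to 8 higher without 1 library, 9 higher after the correction). Over all genes 13.2% were higher, and 23.6% after the correction. The linker histone Hist1h1e was at 0.304, 0.526 and 0.401 CPM at day 5 and at 2.39, 7.25 and 3.21 CPM at day 9 (adjusted p = 0.00488), highest in the day 9 library with the largest share of Gm42418. Malat1, a nuclear long noncoding RNA, was at 178, 236 and 116 CPM and then at 1214, 670 and 441 CPM (adjusted p = 0.0132).

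Protein-coding genes also rose by large factors. Txnip, the thioredoxin inhibitor that restrains glucose uptake, on chromosome 3 (96557957 to 96561883), went from 8.69, 9.30 and 11.1 CPM to 90.6, 78.1 and 107 CPM, 9.49-fold higher (log2 3.25 ± 0.20, adjusted p = 7.86e-05). Hif3a, a hypoxia-inducible factor subunit, went from 0.676, 1.18 and 2.30 CPM to 16.1, 16.5 and 22.0 CPM (log2 3.72 ± 0.45, adjusted p = 0.00231). Cd82, a tetraspanin, went from 1.08, 1.61 and 1.46 CPM to 13.7, 10.1 and 13.1 CPM (log2 3.15 ± 0.27, adjusted p = 0.00052). In none of these did the groups overlap.

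Other genes were among the 16 largest protein-coding rises that were called in all 4 fits and met further conditions. These were a mean of at least 5 CPM, matching effective lengths, at least 1 count in every library and groups that did not overlap. Symbols that also name another gene were left out. Ndrg2, a growth-restraining gene of astrocytes, rose 8.16-fold from 42.0, 54.7 and 69.8 CPM to 486, 297 and 576 CPM (adjusted p = 0.00124). Draxin, a secreted guidance protein, rose 7.97-fold from 24.3, 29.0 and 25.8 CPM to 191, 190 and 249 CPM (adjusted p = 6.69e-05). Dpysl2, which binds tubulin in growing axons, rose 7.1-fold from 63.6, 50.2 and 47.6 CPM to 328, 414 and 404 CPM (adjusted p = 0.00011). Gjd2, a gap junction protein, rose 7.58-fold (adjusted p = 0.0003). Rnf43, a Wnt feedback ligase, rose 7.4-fold from 2.87, 3.42 and 2.95 CPM to 20.7, 26.7 and 21.2 CPM (adjusted p = 0.00032). The others were Synpo2l, P2ry2, Htr3a, Tmem132b, Cdo1, Klf11, Fmo1 and Gpr17, with fitted rises of 6.06-fold (Fmo1) or more.

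Matrix, signalling and lysosome lists held calls in both directions or rises alone, beside 13.2% higher and 11.6% lower over all genes. Of 33 tested matrix and adhesion genes 6 rose and 3 fell, among them Ncan, the proteoglycan neurocan, from 920, 1284 and 1031 CPM to 3418, 3205 and 4111 CPM (log2 1.73 ± 0.19, adjusted p = 0.00171), and the basement membrane collagen Col4a1, up by 1.48. Of 10 tested Hedgehog genes 3 rose, including the receptors Ptch1 and Boc by 1.22 and 1.49, and 3 fell. Of 14 tested Wnt targets 5 rose and 2 fell, and of 11 BMP and TGF-beta targets 3 rose and 1 fell, with Id4, an inhibitor of differentiation factors, up by 1.99. Npc1, the lysosomal cholesterol exporter, rose by 1.43, and 4 of 24 lysosome genes rose and 0 fell. Of 27 tested clustered protocadherins 6 were higher and 0 lower, but 17 of 26 without day 5 replicate 1 and 0 without any 1 of the other 5 libraries, and the beta copies share reads. Leaving out 1 library moved the other counts too: to between 3 and 12 rises and 2 to 6 falls for the matrix list, 3 rises and 0 to 3 falls for Hedgehog, 1 to 5 rises for Wnt, 1 to 5 for BMP and TGF-beta, and 1 to 7 for lysosome genes. After the correction the matrix list had 10 rises and 8 falls, Hedgehog 5 rises and 3 falls, BMP and TGF-beta 5 rises, lysosome 8 rises and protocadherins 13.

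Counts in stress and immune lists stand beside the same shares of all genes, and nothing particular to a list is read from them. Interferon response genes counted 3 rises and 2 falls among 23, with Mx2, an antiviral GTPase, up by 2.13. The MHC class I list had 0 calls among 15 by edgeR and 0 by DESeq2, with 3 at an unadjusted p under 0.05. It had 2 calls without day 5 replicate 1 and 7 after GC and length correction, and Psmb9 had the smallest p (log2 0.78, adjusted p = 0.0819). The unfolded protein response list counted 3 rises and 1 fall among 20, heat shock 2 and 1 among 15, and NRF2 targets 2 and 2 among 19. Metallothionein and iron genes counted 0 rises and 2 falls among 9, with Mt1 down from 362, 550 and 526 CPM to 207, 161 and 196 CPM (adjusted p = 0.00497). Heterochromatin and DNA methylation genes counted 4 rises and 4 falls among 26. These small counts moved when 1 library was left out, to between 1 and 6 rises for interferon, 0 and 7 for unfolded protein and 0 and 9 for heterochromatin genes, and to between 1 and 6 falls for metallothionein genes. After the correction interferon genes had 7 rises and 4 falls, unfolded protein 5 and 4, heat shock 3 and 3, NRF2 5 and 6 and heterochromatin 6 and 9.

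The nuclear lamina list, to which the floxed gene of the series belongs, counted 1 rise and 6 falls among 22 (0 to 3 rises and 0 to 9 falls without 1 library). Over all genes 13.2% were higher and 11.6% lower. Without day 5 replicate 1, the fit with 9 falls, these shares were 27.8% and 24.2%. Lmnb1 itself was at 316, 272 and 262 CPM at day 5 and at 269, 356 and 319 CPM at day 9. The groups overlapped, and the log2 fold change was 0.15 ± 0.17 (adjusted p = 0.519). The lamin genes Lmna (log2 -1.47, adjusted p = 0.00985) and Lmnb2 (log2 -0.83, adjusted p = 0.0177) were called lower. The first call ended without day 9 replicate 3 (adjusted p = 0.0518) and the second without any 1 library but day 5 replicate 1 (highest adjusted p 0.0866). Of the genes often used as references, Actb had a log2 fold change of 0.03 (adjusted p = 0.899) and Tbp of 0.02 (adjusted p = 0.939), and the sign of both turned under other scalings. Gapdh, a glycolysis enzyme, had a log2 fold change of -0.91 (adjusted p = 0.0289) and Hprt of -0.98 (adjusted p = 0.0286). The call of Gapdh ended without any 1 library but day 5 replicate 1 (highest adjusted p 0.125), and that of Hprt without any 1 library but day 5 replicate 1 or 2 (highest adjusted p 0.107) and after GC and length correction (log2 -0.42, adjusted p = 0.251).

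The cKO libraries hold the same days in the same tables. In a fit of all 12 libraries 2793 of 15837 genes (17.6%) were higher and 3452 (21.8%) lower at day 9 in cKO. The day change differed between genotypes, by the interaction term, for 381 genes in the positive direction (2.41%) and 768 in the negative (4.85%). Of the 24 genes with the largest wild-type rises and falls, 3 were among them, and of all 190 genes taken by the naming rules 40 were. Txnip changed by 3.68 in cKO (adjusted p = 1.17e-06), with an interaction of 0.45 ± 0.29 (adjusted p = 0.473). Rny1, which rose in wild-type cells, had a cKO change of -0.34 ± 2.12 (adjusted p = 0.916), with the cKO libraries of each day split in their small RNA share.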

How the data were processed

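RNA of sorted mouse neural progenitors was sequenced in 12 libraries of 4 groups (3 replicates each). The authors deposited RSEM expected counts and TPM values, scaled by gene length and library size, per gene, and the submitters' processing notes name Bowtie2, RSEM and mm10. No source used here gives the annotation releases or any filter. Day 5 tables carry Ensembl identifiers (42425 of 43309 had a symbol in the GENCODE M21 name table) and day 9 ones list 42802 symbols. The tables were joined on 41592 symbols found once in both. Depth of the wild-type libraries is given in the report, and 0 columns of values were left unmapped.

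Expected counts were rounded to whole numbers and tested with edgeR 4.0.16 (filterByExpr, TMM, robust quasi-likelihood test, Benjamini-Hochberg adjustment over all genes tested, threshold 0.05) under R 4.3.3, after a test on simulated data. Adjusted p-values come from this fit unless another is named, and ± gives a standard error. cKO values come from a fit of 12 libraries. Counts over TPM gave effective lengths within 1.2-fold between the tables for 93.3% of 13224 genes. Alternatives were DESeq2 1.42.0, limma 3.58.1 on TPM, ranks or quantile-normalized values, other scalings and filters, and leaving out libraries. A correction for transcript GC content and length, a fit of protein-coding genes only and one without symbols that also name another gene were added after the data were seen.

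Named genes were the 12 largest rises and 12 largest falls among called genes with a mean of at least 5 CPM, groups apart in CPM and in rank, matching effective lengths, at least 1 count in every library and a full gene name. In addition, up to 4 called members of smallest adjusted p were taken from each of 42 lists. Lmnb1, Sox2 and 4 reference genes were named by choice. The 16 largest protein-coding falls and rises called in 4 fits were added after the values were seen, as were other list members named singly (among them Mki67, Mbp, Nes, Olig2, Mcm5, Mcm6, Uhrf1 and Gars). The sets of 16 also met the conditions set for the 12 largest, and left out symbols that also name another gene. Members and lists were chosen with earlier results of these data known. Some list members are not reported here.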

Additional observations from a re-analysis of the deposited data

Results flagged for a closer look

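The interaction term of the edgeR quasi-likelihood fit of 12 libraries was examined gene by gene for the 24 largest wild-type rises and falls, and 3 of them differed in day change between genotypes. Of all 190 genes taken by the naming rules 40 did, and the values of the rest are not given here. Apln fell further in cKO than in wild type, by a difference of -3.18 on the log2 scale (SE 0.34, adjusted p = 0.00026). Its cKO levels were 350, 284 and 398 CPM at day 5 and 2.57, 2.43 and 3.25 CPM at day 9. Arc did the same, with a difference of -2.25 (SE 0.61, adjusted p = 0.0485), from 63.2, 27.3 and 45.5 CPM to 1.03, 0.867 and 0.232 CPM in cKO. Day 9 cKO replicates 1 and 3 held 13315399 and 13709810 expected counts, with 59.0% and 57.1% of them on Gm42418. The lowest CPM values in these libraries therefore rest on few counts. Cd82 rose further in cKO, with a difference of 2.02 (SE 0.36, adjusted p = 0.00571), from 0.813, 0.940 and 1.13 CPM to 31.6, 44.3 and 26.7 CPM. The 2 features left out of the comparison are annotated as a lincRNA (Gm42418) and a protein-coding gene (Lars2). They held a mean of 21.6% and 0.786% of the counts of the wild-type day 9 libraries, against 0.278% and 0.0202% at day 5. Which RNA these reads came from was not tested.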

How the results depend on the processing

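The 1913 higher and 1681 lower genes became 3408 and 3140 with correction for GC content and length, and 4027 and 3543 with that correction and without day 5 replicate 1. Leaving out 1 library gave 631 (without day 9 replicate 3) to 4032 (without day 5 replicate 1) higher genes and 437 to 3513 lower genes, with the same libraries left out. Under the other alternatives both counts stayed within 1.5 times, at 1451 to 2178 higher and 1289 to 2431 lower. With the replicate number as a block (replicate block) they were 2178 and 2404. Same-numbered libraries correlated at 0.255, -0.145 and 0.379 in their deviations, and day 5 replicate 2 correlated best with day 9 replicate 3 (0.246), so the numbers were not taken to pair the libraries. The 1149 genes whose day change differed between genotypes became 2673 with the correction and 759 with the replicate block. Without 1 library they numbered 665 (day 9 wild-type replicate 2 or day 5 cKO replicate 3) to 2288 (day 5 cKO replicate 2).

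Some signs turned. The median of the heat shock list was 0.0889 with the correction, 0.0913 with it and without day 5 replicate 1, 0.0481 on quantile-normalized values and 0.00873 on rank scores. With matching effective lengths only, the microglia list had a median of 0.131 and the nuclear noncoding RNA list of -0.0121. Actb, not called, had log2 fold changes of -0.0128 with DESeq2 and with relative log expression factors, -0.0244 with the correction without day 5 replicate 1, -0.0078 with Gm42418 and Lars2 kept, -0.0116 with matching lengths, -0.0545 on both TPM scales, -0.0551 without a filter, and -0.0859 to 0.0818 without 1 library. Tbp, not called, had -0.0191, -0.019, -0.0845, -0.00657 and -0.0127 in the same order, -0.021 and -0.0208 on log2 TPM with 0.1 and 1 added, -0.055 without a filter, and -0.0641 to 0.148 without 1 library. Over all named genes and alternatives 3926 values kept direction and call, 363 lost the call, 13 gained it and 21 turned sign. The cause of these changes was not tested. The biological coefficient of variation of the wild-type libraries was 0.282, and genes under the low count filter were not tested.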
